A study of Homo sapiens with 6 samples.

Results

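Serpins are a family of proteins that share one fold. Most of them inhibit serine or cysteine proteases by a suicide mechanism, in which the protease cuts an exposed reactive loop and is then trapped in a covalent complex. A few members have lost this activity and serve as chaperones, hormone carriers or secreted factors. In melanoma, as in other tumours, serpins are known mainly for shielding cells from plasmin, leukocyte proteases and granzymes. The 10 genes described here are SERPINA1, SERPINA3, SERPINA5, SERPINB1, SERPINB6, SERPINB8, SERPINB9, SERPINF1, SERPINH1 and SERPINI1. They were taken by symbol from a table of 60504 genes and not by a threshold on their values. They were chosen with earlier results of these data known. The rest of the family serves here as a comparison list.

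Gene counts were measured by RNA-seq in WM164, a human melanoma cell line with the BRAF V600E mutation, which all samples share. The EV group (3 libraries) carried an empty expression vector and the HDAC8 group (3 libraries) a vector for HDAC8, a class I histone deacetylase. The comparison asks which transcripts differ when HDAC8 is introduced. The labels number the libraries of a group as biological replicates and do not say whether they came from separate transfections, so the p-values measure the spread between these libraries.

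The vector's own transcript did not check the labels. HDAC8 was at 383.8, 404.4 and 478.8 normalized counts with the empty vector and 484.8, 445.5 and 473.7 in the libraries labelled HDAC8 (DESeq2 log2 fold change 0.15, SE 0.28, adjusted p = 0.856), and the groups overlapped. Directions below are those of the libraries labelled HDAC8 against EV. Total counts ran from 34741083 to 42041462 and overlapped between the groups. Mitochondrial transcripts took 9.66% to 12.8% of the counts in EV and 4.46% to 7.94% in the libraries labelled HDAC8. Among 8 melanocytic markers, TYRP1 was at 62.9 normalized counts or less in every library, and 5 were lower in the libraries labelled HDAC8. In bulk RNA, fewer cells of a type and less RNA per cell cannot be told apart.

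Of the 10 serpins, 9 had enough counts to be tested and SERPINB9 had none. SERPINF1 fell 10.7-fold, while SERPINH1 rose 1.85-fold and SERPINA5 rose 1.70-fold. The other 6 were not called. Calls needed a DESeq2 adjusted p under 0.05 together with a log2 fold change of 0.58 or more either way. Thus 2 of 9 serpins were higher, where 5.57% of the 21021 genes with an adjusted p were higher, and 1 of 9 was lower, where 5.44% were lower. The groups of libraries did not overlap for the 3 called serpins and overlapped for the other 6, against a share of 24% without overlap among all 26162 genes tested. The median log2 fold change of the 9 was 0.09, beside 0 for all genes tested. With so few members these shares describe the genes one by one and say nothing of the group.

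**Figure D1:**
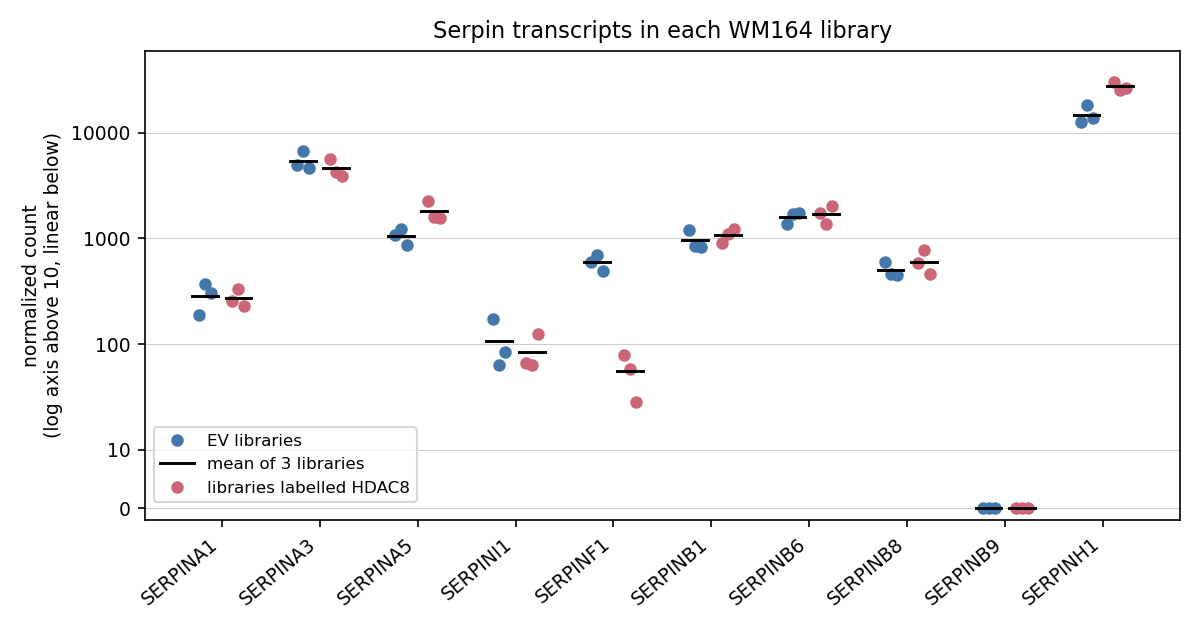
Normalized count (vertical, log axis above 10) of each of the 10 serpins in the 3 EV libraries (blue) and the 3 libraries labelled HDAC8 (red), with a black line at the mean of each group. The red and blue points separate for SERPINA5, SERPINF1 and SERPINH1, overlap for 6 others and lie at 0 for SERPINB9.

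**Figure D2:**
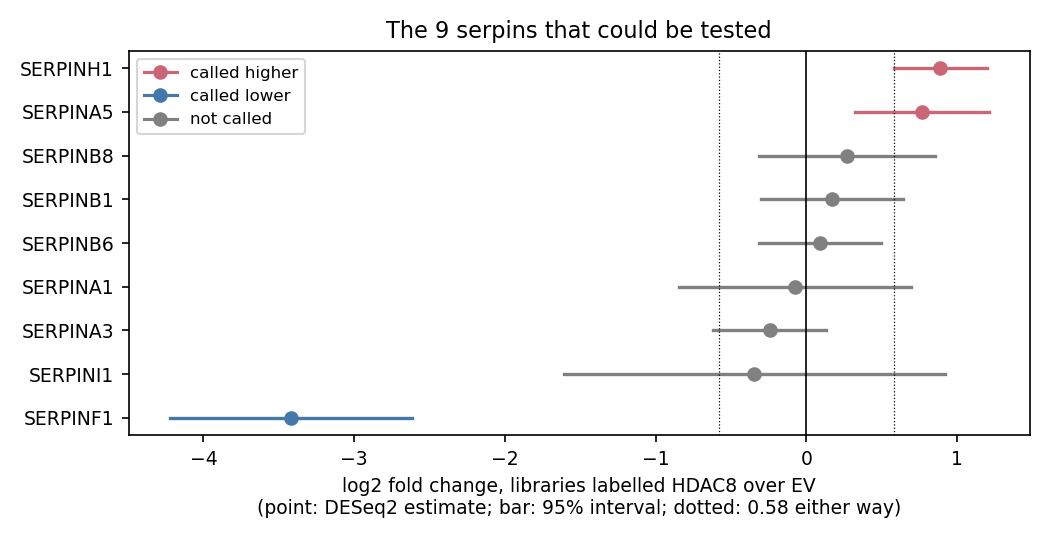
Log2 fold change (horizontal) of the 9 tested serpins with its 95% interval from the DESeq2 standard error, coloured by call, with dotted lines at 0.58 either way. SERPINF1 lies at -3.42, far to the left of every other serpin, and the widest interval is that of SERPINI1.

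The 250 bases before the RefSeq transcription start (GRCh38.p14) are shown for both serpins that rose and for SERPINB8, because they hold, or lack, the short motifs of 3 factor families that bear on this family or on the study. The motifs, searched on both strands, were TGANTCA for AP-1, CATGTG (the M-box bound by MITF) and GAANNTTC (a pair of inverted heat shock units). Capitals mark a match. Among 35116 promoters of this length the motifs were found in 6.57%, 9.42% and 5.78% respectively. Promoter sequence was matched for 9 of the 10 serpins, and SERPINF1 was the one without an entry.

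SERPINH1, chr11:75562003-75562252, plus strand: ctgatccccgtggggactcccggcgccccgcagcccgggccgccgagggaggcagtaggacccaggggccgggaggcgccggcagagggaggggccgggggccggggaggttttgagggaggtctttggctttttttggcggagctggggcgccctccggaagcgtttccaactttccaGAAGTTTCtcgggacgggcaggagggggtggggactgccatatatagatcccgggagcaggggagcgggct
SERPINA5, chr14:94581176-94581425, plus strand: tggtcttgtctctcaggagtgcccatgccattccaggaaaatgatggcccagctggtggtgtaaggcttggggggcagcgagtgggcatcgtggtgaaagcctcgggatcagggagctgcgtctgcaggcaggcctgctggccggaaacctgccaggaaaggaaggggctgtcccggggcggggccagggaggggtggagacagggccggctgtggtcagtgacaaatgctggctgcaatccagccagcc
SERPINB8, chr18:63969831-63970080, plus strand: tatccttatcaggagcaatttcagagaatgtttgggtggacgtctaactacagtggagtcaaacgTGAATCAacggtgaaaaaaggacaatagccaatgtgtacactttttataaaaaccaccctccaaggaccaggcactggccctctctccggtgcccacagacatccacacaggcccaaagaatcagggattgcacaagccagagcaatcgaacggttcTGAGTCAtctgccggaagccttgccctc

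The SERPINH1 promoter shown held 1 heat shock motif, which starts 71 bases before the transcription start, and neither of the other motifs. Another SERPINH1 promoter entry, slightly downstream, held none of the 3. The SERPINA5 promoter held none of the 3. SERPINB8 held 2 AP-1 motifs, which start 185 and 28 bases before its transcription start, and SERPINB6 held 2 M-box motifs in 1 of its 4 promoters. The promoters of SERPINA1, SERPINA3, SERPINB1, SERPINB9 and SERPINI1 held no match. SERPINB8 and SERPINB6, the genes with AP-1 and M-box letters, were not called. A match is a run of letters and was not tested for binding.

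The first group are the members without protease inhibition. SERPINF1 (ENSG00000132386, GRCh38 chromosome 17, 1762029 to 1777565, plus strand) encodes pigment epithelium-derived factor, a secreted protein known to block the growth of blood vessels and to sustain neurons. It was at 594.6, 696.7 and 489.6 normalized counts with the empty vector and 78.7, 58.4 and 28.3 in the libraries labelled HDAC8. Every library labelled HDAC8 was thus far below the lowest EV library. The mean fell from 593.6 ± 103.6 to 55.1 ± 25.3 (SD, n = 3). DESeq2 put its log2 fold change at -3.42 with an SE of 0.41 and an adjusted p of 9.46e-15. The fall was 10.7-fold, with a 95% interval of 6.14-fold to 18.7-fold. It was called under all 16 alternative settings, with log2 fold changes from -3.77 to -3.11.

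SERPINH1 (ENSG00000149257, chromosome 11, 75562056 to 75572783, plus strand) encodes a collagen chaperone of the endoplasmic reticulum, which binds the folded procollagen helix. It had 12572.7, 18311.6 and 13814.4 normalized counts with the empty vector and 30606.8, 25367.2 and 26861.2 in the libraries labelled HDAC8. The groups were separated by a gap wider than the spread within either one. The mean rose from 14899.6 ± 3019.4 to 27611.7 ± 2699.2 (SD, n = 3). DESeq2 put its log2 fold change at 0.89 with an SE of 0.16 and an adjusted p of 7.03e-07. The fold was 1.85, with a 95% interval of 1.496 to 2.295. A processed pseudogene, SERPINH1P1, held at most 20.5 normalized counts in a library, and the SERPINH1 counts were whole numbers in all 6 libraries.

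The remaining members are inhibitors. SERPINA5 (ENSG00000188488, chromosome 14, 94561442 to 94593118, plus strand) encodes protein C inhibitor, which acts on activated protein C, thrombin, plasminogen activators and kallikreins. It was at 1078.0, 1241.2 and 870.9 normalized counts with the empty vector and 2271.9, 1582.3 and 1572.4 in the libraries labelled HDAC8. The groups did not overlap, and HDAC8 replicate 1 stood above the other libraries. The mean rose from 1063.3 ± 185.6 to 1808.9 ± 401 (SD, n = 3). DESeq2 put its log2 fold change at 0.77 with an SE of 0.23 and an adjusted p of 0.00879. The fold was 1.70, with a 95% interval of 1.25 to 2.32. This call rests on 3 of the 6 libraries, each of which it needs. HDAC8 replicate 1, the highest for SERPINA5, also had the lowest mitochondrial share (4.46%) and differed most from the other libraries of its group (chi-square per degree of freedom 167.6 and 112, against 27.6 between HDAC8 replicates 2 and 3). Without HDAC8 replicate 1 the log2 fold change was 0.57, under the minimum. Without EV replicate 1 (0.77, adjusted p = 0.0511 by DESeq2) or EV replicate 3 (0.64, adjusted p = 0.11 by DESeq2) it was not called either. In each of these cases 1 serpin was called higher in place of 2.

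SERPINA3 encodes alpha-1-antichymotrypsin, an acute phase protein that inhibits cathepsin G and mast cell chymase. Its own row (ENSG00000196136, chromosome 14, 94612384 to 94624055, plus strand) was at 4992.8, 6751.1 and 4605.8 normalized counts with the empty vector and 5649.5, 4257.8 and 3892.9 in the libraries labelled HDAC8. The ranges overlapped and the gene was not called (DESeq2 log2 fold change -0.24, SE 0.19, adjusted p = 0.503). Among the 9 tested members SERPINA3 was also the one whose counts were not whole numbers. An expected count is fractional where reads were shared out between genes.

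The missing fractions lay in another row of the table, AL049839.2 (ENSG00000273259, chromosome 14, 94592058 to 94624646, plus strand). The counts of both rows summed to a whole number, within 0.015, in all 6 libraries. In the annotation this locus is a read-through gene that starts inside SERPINA5 and ends past SERPINA3, and its single transcript is marked as a target of nonsense-mediated decay. Of its 3067 exonic bases, 51.7% are also exonic in SERPINA3. The counting gave it 12772.6, 18619.2 and 15805.1 normalized counts with the empty vector and 8030.9, 10289.2 and 9544.8 in the libraries labelled HDAC8. More than SERPINA3's own share thus went to the read-through row in every library. SERPINA3 kept 28.1%, 26.6% and 22.6% of the summed counts in EV and 41.3%, 29.3% and 29% in the libraries labelled HDAC8.

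The read-through row fell, with no overlap between the groups (DESeq2 log2 fold change -0.76, SE 0.16, adjusted p = 7.59e-05). With both rows added into one, an alternative chosen after the data had been seen, the counts were 17765.0, 25370.3 and 20410.8 with the empty vector and 13680.5, 14547.0 and 13437.5 in the libraries labelled HDAC8. The sum fell with no overlap (DESeq2 log2 fold change -0.61, SE 0.15, adjusted p = 0.000781) and, if counted as SERPINA3, would bring the serpins called lower to 2. It may include reads from the 1482 exonic bases of the read-through row that lie outside SERPINA3. edgeR also called the sum (-0.62, adjusted p = 0.0262). Without EV replicate 2, the highest library, the log2 fold change of the sum was -0.46 and it was not called. The estimate was below 0 in the SERPINA3 row and in the sum, and the call depended on where shared reads were placed.

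**Figure D3:**
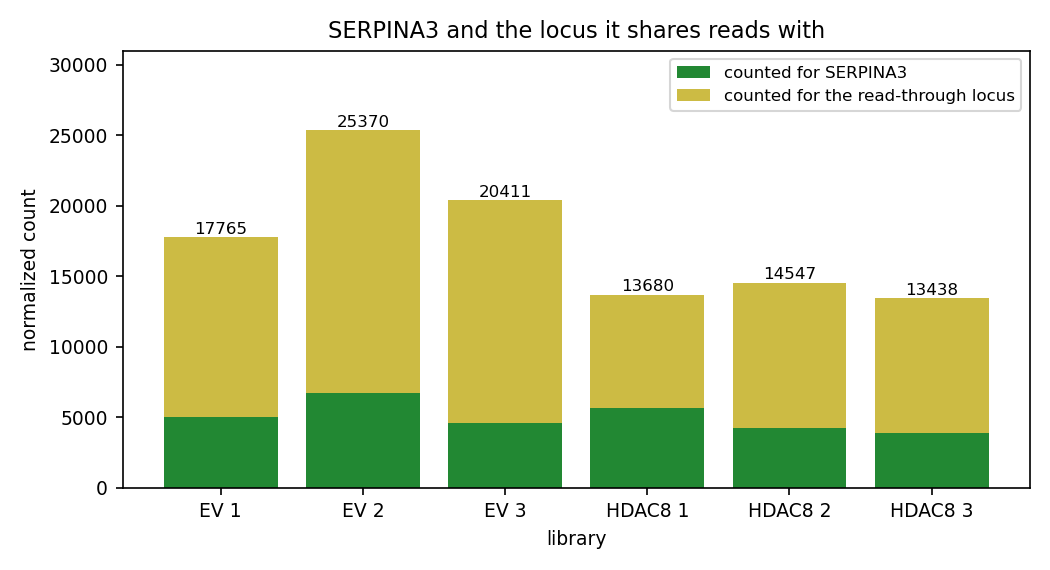
Normalized count (vertical) in each of the 6 libraries, stacked as the part counted for SERPINA3 (green) and the part counted for the read-through locus AL049839.2 (yellow), with the sum above each bar. The sums of the 3 EV libraries all lie above those of the 3 libraries labelled HDAC8, while the green parts overlap between the groups.

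SERPINA1 (ENSG00000197249, chromosome 14, 94376747 to 94390693, minus strand) encodes alpha-1-antitrypsin, the main plasma inhibitor of neutrophil elastase. It had 189.8, 370.8 and 301.4 normalized counts with the empty vector and 254.8, 333.9 and 229.8 in the libraries labelled HDAC8. The ranges lay one inside the other, and the log2 fold change was -0.08 (95% interval -0.84 to 0.69, DESeq2 adjusted p = 0.962). These libraries do not exclude a change of any size within that interval. Hepatocytes are the usual source of SERPINA1, and 3 of 8 hepatocyte markers (ALB, APOA1 and APOH) were at 0 in every library. The 8 markers together summed to 5.9 to 60.7 normalized counts in EV and 4.4 to 70.1 in the libraries labelled HDAC8.

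SERPINI1 (ENSG00000163536, chromosome 3, 167735243 to 167825569, plus strand) encodes neuroserpin, a brain inhibitor of tissue plasminogen activator. It was at 172.0, 63.5 and 84.7 normalized counts with the empty vector and 65.8, 63.5 and 123.1 in the libraries labelled HDAC8. EV replicate 1 was the highest library, and the ranges overlapped (DESeq2 log2 fold change -0.34, SE 0.65, adjusted p = 0.853). PDCD10, whose gene lies head to head with SERPINI1 at a distance of 303 bases, was not called either (DESeq2 log2 fold change -0.04, adjusted p = 0.972).

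The clade B serpins stay mostly inside the cell, in cytosol and nucleus. SERPINB1 (ENSG00000021355, chromosome 6, 2832332 to 2841959, minus strand), an inhibitor of neutrophil elastase and cathepsin G, had 1198.6, 854.5 and 828.5 normalized counts with the empty vector and 903.0, 1096.9 and 1242.5 in the libraries labelled HDAC8. SERPINB6 (ENSG00000124570, chromosome 6, 2948159 to 2972165, minus strand), an inhibitor of cathepsin G, had 1375.8, 1707.2 and 1731.9 against 1753.8, 1370.3 and 2008.0. SERPINB8 (ENSG00000166401, chromosome 18, 63970029 to 64019779, plus strand), an inhibitor of the convertase furin, had 594.6, 456.7 and 452.2 against 581.5, 775.3 and 457.4. The ranges overlapped for each of them. Their log2 fold changes were 0.17 (95% interval -0.30 to 0.64) for SERPINB1, 0.09 (-0.31 to 0.50) for SERPINB6 and 0.27 (-0.31 to 0.86) for SERPINB8, with DESeq2 adjusted p of 0.784, 0.887 and 0.689.

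SERPINB9 (ENSG00000170542, chromosome 6, 2887270 to 2903309, minus strand) encodes the inhibitor that protects cells from granzyme B. It had a count of 0 in all 6 libraries. A count of 0 allows up to 3 counts, which is 0.0714 to 0.0864 CPM depending on the library, for counting error alone. Its neighbours SERPINB1 and SERPINB6 lie on the same strand within 139834 bases and had at least 828.5 normalized counts in every library. The 3 genes side by side thus held 1 without counts and 2 with counts in both groups.

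The other cluster, on chromosome 14, showed the same unevenness. From SERPINA10 to SERPINA3 the table held 11 genes over 344187 bases that GENCODE 44 marks as protein-coding, the read-through locus included. The table itself gives SERPINA2, one of them, as a polymorphic pseudogene. Of the 11, 3 had no count in any library and 6 had at most 13 counts in any library. SERPINA1, SERPINA5, SERPINA3 and the read-through locus carried nearly all counts, and called genes (SERPINA5 higher, the read-through locus lower) lay next to each other in opposite directions. SERPINA4, which overlaps the start of SERPINA5 in the annotation, had at most 11.1 normalized counts in a library.

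Levels of different serpins were compared per kilobase of the median annotated coding transcript. This length was 618 bases for SERPINA5, 651 for SERPINF1 and 986 for SERPINH1, where the longest had 2278, 1438 and 3391. A shorter length gives a higher level per kilobase. In EV the order was SERPINH1 (15110 ± 3060 normalized counts per kilobase, SD, n = 3), SERPINA3 (3453 ± 724), SERPINA5 (1721 ± 300), SERPINB6 (1172 ± 145), SERPINF1 (911.9 ± 159), SERPINB8 (425.4 ± 68.7), SERPINB1 (387.9 ± 83.4), SERPINA1 (188.8 ± 60) and SERPINI1 (126.8 ± 68.3). The ranges of neighbours overlapped for SERPINB6 and SERPINF1, for SERPINB8 and SERPINB1, and for SERPINA1 and SERPINI1. In the libraries labelled HDAC8 SERPINF1 moved from place 5 to place 9 of 9 (84.69 ± 39.0), where its range overlapped that of SERPINI1 (99.92 ± 40.1). SERPINA5 (2927 ± 649) and SERPINA3 (2914 ± 587) then overlapped, and SERPINH1 stood 9.57-fold above the next. With the longest coding transcript in place of the median, SERPINH1 stayed first, 4.71-fold above SERPINA3 in the libraries labelled HDAC8, SERPINA3 (1729 ± 348) and SERPINA5 (794.1 ± 176) no longer overlapped there, and SERPINF1 moved from place 4 to place 9. With the longest transcript SERPINB1 stood above SERPINB6 without overlap, 1.36-fold in EV and 1.43-fold in the libraries labelled HDAC8. By the median SERPINB6 was the higher, so the order depended on the length used. The levels of SERPINA3 leave out the read-through row.

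The nearest protein-coding genes on either side of the called serpins were examined next. SERPINF1 lies between SERPINF2, the plasma inhibitor of plasmin (36.9 ± 22.6 normalized counts in EV, 25.5 ± 1.0 in the libraries labelled HDAC8, SD, n = 3), and SMYD4. Neither was called (log2 fold changes -0.54 and 0.39, DESeq2 adjusted p = 0.853 and 0.167). SERPINH1 lies between GDPD5 and MAP6, and both were lower while SERPINH1 was higher. GDPD5 had 1968.2, 2399.3 and 2029.4 normalized counts in EV and 1306.6, 696.4 and 1060.6 in the libraries labelled HDAC8 (DESeq2 log2 fold change -1.06, adjusted p = 0.000173). MAP6 had 13.6, 10.3 and 32.5 and then 0 in all 3 libraries labelled HDAC8, at least 6.33-fold lower against a floor of 3 counts per library (DESeq2 adjusted p = 0.0326). On the left of SERPINA5, SERPINA12 was too low to be tested.

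The genes whose pattern over the 6 libraries was nearest to each called serpin were found among 12222 protein-coding genes, by the root mean square difference of centred log2 values. For SERPINH1 these were TNC, a matrix glycoprotein (0.04), and GANAB, a glucosidase subunit of the endoplasmic reticulum (0.05). For SERPINA5 they were PES1 (0.05) and DRG2 (0.07), and for SERPINF1 ARHGAP23 (0.25) and DHRS2 (0.27). The distances for SERPINF1 were the widest of the 3 serpins. All 6 of these genes were called in the direction of their serpin, and likeness over 6 libraries cannot be told apart from a difference of like size between the groups.

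Other genes of the family and its partners were examined as lists. The shares to set beside each list, over all 21021 genes with an adjusted p, are 5.57% higher and 5.44% lower. Shares among genes of like counts were not compared. Of 26 other serpins, 11 had no count in any library and 13 were tested. DESeq2 gave 8 of them an adjusted p, and 3 were called, each of them higher. The median log2 fold change of those tested was 0.89, beside 0 over all genes tested. It rests partly on rows with no count in several libraries. Of these, SERPINB5, SERPINE3, SERPINA4 and SERPINB10 lay above the median, and SERPINB7 and SERPINC1 below it. Among the called serpins were SERPINE2, an inhibitor of thrombin and plasminogen activators, at a log2 fold change of 1.88 (DESeq2 adjusted p = 2.5e-37), and AGT, the angiotensin precursor, at 0.89 (DESeq2 adjusted p = 0.0351). SERPINE2 had 56931.7 ± 1432.4 normalized counts in EV and 210233.5 ± 36547.4 in the libraries labelled HDAC8 (SD, n = 3).

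Among 23 target proteases, 16 were tested (11 with an adjusted p), 1 was higher and 3 were lower (median -0.33). PLAT, tissue plasminogen activator and a target of SERPINI1 and SERPINA5, rose from 5628.3 ± 1140.5 to 15006.5 ± 692.1 normalized counts (SD, n = 3; DESeq2 log2 fold change 1.42, adjusted p = 6.29e-17). The 3 that fell are cysteine cathepsins of the lysosome. CTSK fell from 328.1 ± 71.4 to 63.0 ± 15.0 (DESeq2 log2 fold change -2.38, adjusted p = 2.57e-06) and CTSL from 6683.6 ± 589.6 to 3854.7 ± 1271.1 (-0.79, DESeq2 adjusted p = 0.00149). CTSS, named after its values were seen, fell by 3.96 on the log2 scale at a low level (68.6 ± 21.1 to 4.4 ± 4.0). Thus the called proteases of this list moved in both directions, and their inhibition by the serpins described here was not tested.

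Among 14 receptors for serpins and serpin complexes, all tested, 1 was higher and 2 were lower (median -0.29). PLXDC1, a cell surface receptor of the SERPINF1 protein, had 122.7, 109.3 and 140.9 in EV and 0.9, 0 and 25.0 in the libraries labelled HDAC8 (DESeq2 log2 fold change -3.86, adjusted p = 0.00485). LRP1B, an endocytic receptor, fell by 2.37 on the log2 scale (DESeq2 adjusted p = 0.00148). Both SERPINF1 and PLXDC1 were therefore lower in the libraries labelled HDAC8. The other SERPINF1 receptors of the list, named after their values were seen, were not called. PNPLA2, RPSA, LRP6 and ATP5F1B changed by -0.33, -0.10, -0.20 and -0.30 on the log2 scale (DESeq2 adjusted p = 0.443, 0.773, 0.353 and 0.108). PLXDC2 was low, at a mean of 8.7 normalized counts in EV and 9.6 in the libraries labelled HDAC8.

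The collagen folding list, which holds the enzymes and export factors that act with SERPINH1, had 23 genes, all tested. Of these 9 were higher and 1 was lower, with a median log2 fold change of 0.46. PLOD1, a lysyl hydroxylase, had 11090.0, 16351.3 and 12639.2 normalized counts in EV and 35160.1, 27588.5 and 29828.6 in the libraries labelled HDAC8 (DESeq2 log2 fold change 1.21, SE 0.16, adjusted p = 7.3e-12). P3H2 and P4HA2, prolyl hydroxylases, were higher by 0.91 and 0.82 (DESeq2 adjusted p = 0.00113 and 0.000193), and TXNDC5, a disulfide isomerase, by 0.77 (DESeq2 adjusted p = 8.44e-07). CRTAP, named after its values were seen, forms a complex with a prolyl 3-hydroxylase and fell from 17904.0 ± 1753.8 to 11413.7 ± 1868.0 (SD, n = 3; DESeq2 log2 fold change -0.65, adjusted p = 0.000443). The collagens listed as fibroblast markers were low, with COL1A1 at 95.3 to 105.4 normalized counts in EV and 0 to 79.5 in the libraries labelled HDAC8.

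**Figure D4:**
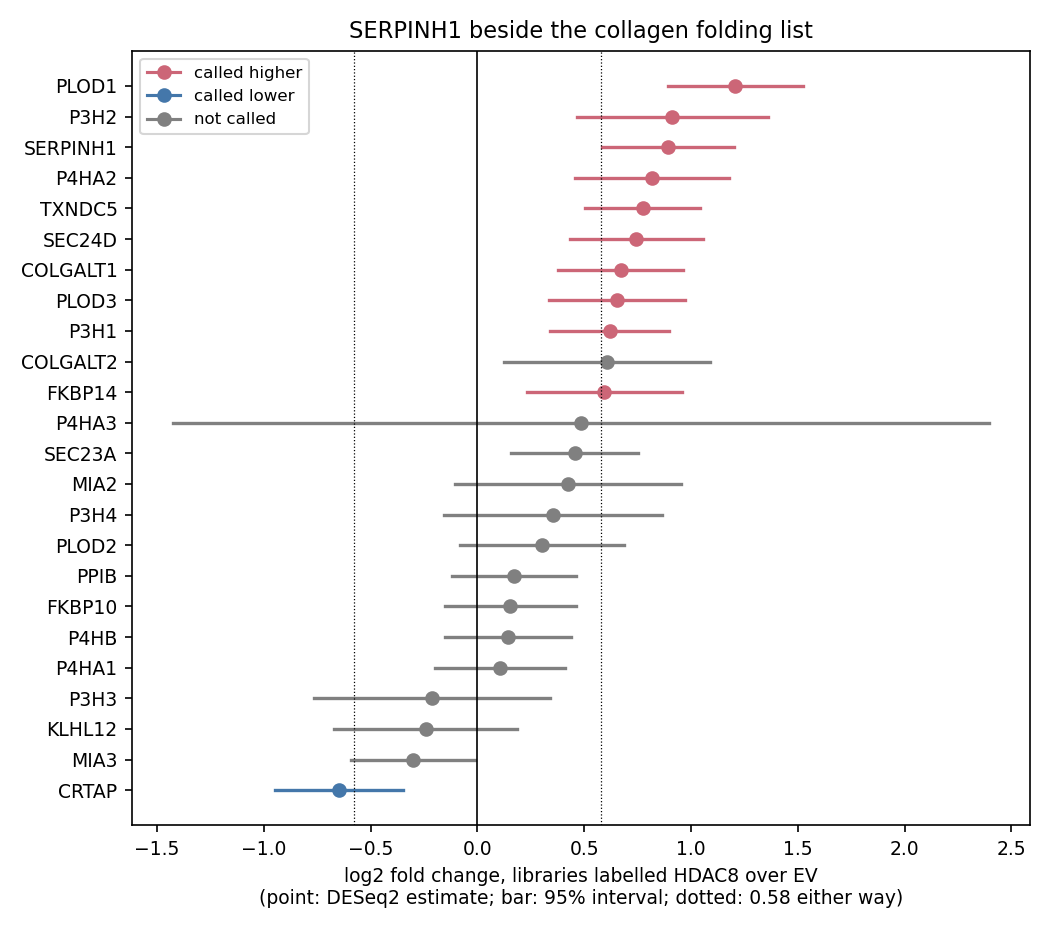
Log2 fold change (horizontal) of SERPINH1 and the 23 genes of the collagen folding list, each with its 95% interval from the DESeq2 standard error, coloured by call, with dotted lines at 0.58 either way. SERPINH1 at 0.89 sits near the top, below PLOD1 and P3H2 and among 9 genes of the list that were called higher, and CRTAP lies alone at the bottom.

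SERPINH1 is known as a heat shock gene, so the heat shock response was listed as well. Of its 19 genes, all tested, 1 was higher and 2 were lower (median 0.12). HSPA1A, the inducible chaperone, rose by 0.66 on the log2 scale (DESeq2 adjusted p = 0.000727), although it has a near-identical copy and its counts were fractional. That copy, HSPA1B, also with fractional counts, changed by 0.39 and was not called (DESeq2 adjusted p = 0.0739). CRYAB, a small heat shock protein, fell from 1114.0 ± 112.7 to 282.1 ± 75.7 normalized counts (SD, n = 3; DESeq2 log2 fold change -1.98, adjusted p = 2.4e-11), and CHORDC1 changed by -0.61 with groups that overlapped (DESeq2 adjusted p = 0.0371). The rise of SERPINH1 was thus measured beside a list with 1 higher gene and 2 lower genes.

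SERPINA1 and SERPINA3 are acute phase genes of the IL6 pathway. Of 32 genes of that list, 23 were tested (18 with an adjusted p), 4 were higher and 3 lower (median -0.05). CEBPD, a transcription factor of the acute phase, rose by 1.16 on the log2 scale and OSMR, the oncostatin M receptor, by 0.87 (DESeq2 adjusted p = 0.027 and 1.84e-05). C3, a complement component, fell by 1.82 and CEBPB, the paired transcription factor, by 1.21 (DESeq2 adjusted p = 0.0165 and 0.00012). TIMP1 and LIF were the other higher genes and JAK2 the other lower one, named after their values were seen. The count of 7 fell to 3 without EV replicate 1 and to 4 without EV replicate 3, HDAC8 replicate 2 or HDAC8 replicate 3.

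Markers of cells that should not be in a cell line were checked on whole lists of 8 genes each. Leukocyte markers, of interest because leukocytes express SERPINB1 and SERPINB9, summed to 2372.1 to 3378.4 normalized counts in EV and 4342.2 to 6286.6 in the libraries labelled HDAC8. CD68, a lysosomal protein that many cells make, held most of that sum. PTPRC, the pan-leukocyte marker, reached 2.6 normalized counts in 1 library and was at 0 in the others. CD3E was at 0 in EV and at 78.7, 91.1 and 50.1 in the libraries labelled HDAC8. Both CD68 and CD3E were called higher (DESeq2 adjusted p = 3.13e-05 and 1.1e-06). Fibroblast markers summed to 2546.8 to 2982 in EV and 1513.2 to 2423.5 in the libraries labelled HDAC8, with 1 of 8 genes (PDGFRA) called higher and DCN at 0 in every library. LUM held most of the fibroblast sum. Keratinocyte markers summed to 210.1 to 374.3 and 246.1 to 338, with KRT15 called higher and KRT1 at 0 in every library. The part of these markers in the results was not tested.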

How the data were processed

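RNA-seq libraries of WM164 cells (3 EV, 3 HDAC8) were analysed, grouped by their labels. The authors trimmed reads with Trimmomatic, aligned them with STAR to the transcriptome and estimated reads per gene with RSEM, and the deposited values are expected counts per gene, not scaled between libraries. Removal of duplicates, strand, build and annotation are not given in the sources used here, so overlapping genes are uncertain. Expected counts were rounded to whole numbers. Groups were compared with DESeq2 1.42.0 in R 4.3.3 (Wald test, two-sided, no covariates) over 26162 genes whose counts summed to 10 or more, with DESeq2 size factors of 0.918 to 1.17 and Benjamini-Hochberg adjustment over the 21021 genes to which DESeq2 gave an adjusted p. Normalized counts are counts divided by the size factor. A call needed an adjusted p under 0.05 and a log2 fold change of 0.58 or more either way. Intervals are at the 95% level.

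The 10 serpins, the gene lists and the tests were chosen with earlier results of these data known. Named genes are the serpins, HDAC8, up to 4 called genes per list by size of change at a mean normalized count of at least 50, called serpins outside the 10, chromosomal neighbours and the 2 nearest patterns. Lists are described by counts and medians, with no set test. Some genes counted in the lists are not reported here. Positions and lengths came from GENCODE 44 (GRCh38), where 56558 of 60504 identifiers were found, and promoters from RefSeq. Alternatives were edgeR 4.0.16 quasi-likelihood, limma 3.58.1 voom, 3 other scalings, 2 other count filters, a replicate block, a test against the fold minimum, unadjusted p, and each library left out. The row sum for SERPINA3 was added after seeing the data. On simulated data for this comparison (23661 genes), DESeq2 recovered 38% of genes changed by log2 1 and 79% of those changed by log2 2, with 48 false calls. On the same data edgeR recovered 30% and 75% with 16 false calls, and limma-voom 33% and 70% with 11. Within a group, no pair of libraries agreed within counting noise (chi-square per degree of freedom 27.6 to 167.6, with the highest values for pairs with HDAC8 replicate 1).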

Additional observations from a re-analysis of the deposited data

How the results depend on the processing

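SERPINF1 was called lower under all 16 alternatives and SERPINH1 higher under 15 of them. SERPINA5 was called higher under 12. Tested against the fold minimum itself, SERPINA5 (0.77) and SERPINH1 (0.89) were not called (DESeq2 adjusted p = 1 and 0.708), so that 0 serpins were higher. The same test left 2 calls among target proteases, 0 among receptors, 1 in collagen folding, 1 in the heat shock response and 0 in the acute phase list. At unadjusted p under 0.05 the ordinary DESeq2 test called 2 serpins higher, 3 receptors and 8 acute phase genes, and edgeR at adjusted p called 2, 2 and 6. With single libraries left out, 1 to 2 serpins were higher, and 3 to 5 genes of the acute phase list were called. The sum of the SERPINA3 row and the read-through row changed by -0.61 and, if counted as SERPINA3, made the serpins called lower 2. The log2 fold changes of uncalled serpins crossed 0 with libraries left out, over -0.303 to 0.149 for SERPINA1 (above 0 without EV replicate 2, and 0.035 without HDAC8 replicate 3), -0.721 to 0.179 for SERPINI1 (above 0 without EV replicate 1) and -0.038 to 0.233 for SERPINB6 (below 0 without HDAC8 replicate 3, and -0.01 without EV replicate 1). The cause of these shifts was not tested. Replicate numbers did not pair the libraries (correlations of same-numbered deviations -0.03, -0.07 and 0.04), and with the replicate block the calls of the 10 serpins did not change (2 higher, 1 lower; SERPINA5 0.76, DESeq2 adjusted p = 0.0209). Under the block, calls over all genes were 1075 higher and 1078 lower, in place of 1170 and 1143. Total-count scaling shifted the median of all genes by 0.04. In the simulation, changes of log2 1 were recovered in 38% of genes at 3 libraries a group. Of the uncalled serpins, SERPINI1 had a DESeq2 interval that reached such a change (-1.609 to 0.921). The intervals of SERPINA1 (-0.843 to 0.692), SERPINA3 (-0.617 to 0.128), SERPINB1 (-0.301 to 0.641), SERPINB6 (-0.314 to 0.497) and SERPINB8 (-0.312 to 0.855) did not reach it. These serpins may still differ by smaller amounts, within those intervals.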
